A study of Mus musculus with 16 samples.

Results

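The tricarboxylic acid cycle enzymes described here are the products of 9 nuclear genes, Cs, Idh2, Idh3a, Ogdh, Dlst, Suclg1, Sucla2, Fh1 and Mdh2, measured in mouse skeletal muscle. They were taken as every non-control probe whose RefSeq accession belongs to one of these genes, which gave 11 probes and all 9 genes out of 29011 genes tested. The rule for taking probes used no expression value, but the genes themselves were chosen with earlier results of these data known. Muscle was taken from male mice aged 21 to 23 weeks. Wild-type mice (WT, Skm-CB1R+/+) were compared with mice in which loxP-flanked Cnr1, the gene of the cannabinoid 1 receptor, was to be removed by Cre recombinase driven by the skeletal muscle Acta1 promoter (CB1KO, Skm-CB1R-/-). Both carried CNR1flox/flox alleles, and the labels write Cre+ for both genotypes, so genotype was read from the sample titles. The mice ate for 15 weeks either a standard diet (SD), with 16.7% of its energy from fat and 12.4% from sugar, or a diet rich in both (HFHS), with 49.2% and 32.2%. The 4 groups (WT_SD, CB1KO_SD, WT_HFHS and CB1KO_HFHS) held 4 biological replicates each, hybridised to 16 one-colour Agilent arrays. On each slide the WT arrays lay in row 1 and the CB1KO arrays in row 2. In every genotype comparison, an effect of row position therefore cannot be told apart from a genotype effect. The replicate number was also the column on the slide. The labels do not name the muscle, and they say that mice were assigned to vehicle or S961 without giving the assignment of each mouse. The diet tags of CB1KO_SD and WT_HFHS contradict the titles, which were followed.

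The cycle oxidises acetyl groups in the mitochondrial matrix and hands the electrons to the respiratory chain as NADH and as reduced flavin. Citrate synthase brings the acetyl group in, and succinyl-CoA ligase makes a nucleoside triphosphate directly. The NAD-dependent dehydrogenase of isocitrate and those of 2-oxoglutarate and malate make NADH. Idh2 encodes the NADP-dependent mitochondrial isocitrate dehydrogenase. Skeletal muscle fibres rich in mitochondria, as slow-twitch fibres are, carry more of the cycle than glycolytic fibres, and citrate synthase activity is a common measure of muscle mitochondrial content.

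Values are log2 intensities minus the 75th percentile of the same array, so 0 is the level of a spot brighter than 75% of the spots and 1 unit is a doubling. Between 56.7% and 75% of the spots of an array were well above background. Signal spread, as the SD of log2 signal over the array, was smallest in CB1KO_SD replicate 2 (2.89) and largest in CB1KO_HFHS replicate 1 (3.97), and the remaining 14 lay between 3.14 and 3.69. Of 9 muscle fibre marker genes, all 9 were well above background on all 16 arrays. Over the 6 comparisons in limma, no marker gene of muscle fibres, slow-twitch fibres, adipocytes, macrophages, endothelium, fibroblasts or red blood cells passed. These lists held 9, 9, 7, 6, 5, 5 and 3 genes. Unadjusted p values under 0.05 in limma numbered 1, 5, 1, 2, 1, 0 and 0, summed over the 6 comparisons. A gene can thus count more than once, and these are not shares of the genes in a list. In a single comparison, 3.63% to 15% of all genes had such a p. The Cnr1 probe was well above background on 14 arrays and did not separate the genotypes (log2 fold change -0.24 ± 0.46 SE on SD and -0.14 ± 0.46 on HFHS, Benjamini-Hochberg adjusted p = 0.933 and 0.923 in limma). Where this probe lies relative to the loxP sites was not determined, so it does not check the genotype labels. In whole muscle, fewer cells of a type and less RNA per cell cannot be told apart.

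The RefSeq promoter table (GRCm38.p6) held a window of 250 bases before to 50 after a transcription start for 8 of the 9 genes, not for Idh3a. The 250 bases upstream of the start are shown, in the sense of the gene, for Idh2, Sucla2 and Fh1, the genes with the smallest p values in the genotype comparisons below. Capitals mark GGGCGG boxes, the letters bound by SP1 (CCGCCC on the other strand), and in Sucla2 also a match to the nuclear respiratory factor 1 motif (GCGC, any 2 bases, GCGC).
Idh2, chr7:80115351-80115600, minus strand: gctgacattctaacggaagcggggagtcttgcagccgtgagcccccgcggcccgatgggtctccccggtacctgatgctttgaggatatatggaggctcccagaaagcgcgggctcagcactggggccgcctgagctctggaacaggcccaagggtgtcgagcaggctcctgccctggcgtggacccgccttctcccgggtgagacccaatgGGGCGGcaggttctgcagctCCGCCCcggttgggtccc
Sucla2, chr14:73552536-73552785, plus strand: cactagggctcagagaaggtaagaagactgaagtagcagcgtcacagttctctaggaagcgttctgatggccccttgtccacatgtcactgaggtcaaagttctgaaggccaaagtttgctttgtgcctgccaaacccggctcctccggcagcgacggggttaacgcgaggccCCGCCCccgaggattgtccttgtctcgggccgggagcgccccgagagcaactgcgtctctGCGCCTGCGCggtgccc
Fh1, chr1:175625636-175625885, minus strand: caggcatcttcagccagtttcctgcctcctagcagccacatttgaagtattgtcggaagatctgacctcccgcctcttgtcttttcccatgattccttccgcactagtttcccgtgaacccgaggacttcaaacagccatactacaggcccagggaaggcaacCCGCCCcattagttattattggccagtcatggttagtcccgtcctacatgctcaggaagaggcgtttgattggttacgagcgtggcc
Searched on both strands over the whole 300 base windows, GGGCGG occurred in 7 of 8 members, all but Suclg1, and in 38.2% of 27025 genes. The nuclear respiratory factor 1 motif occurred in 1 member, Sucla2, and in 7.0% of genes. CCGGAAG, the letters bound by GABPA, occurred in 1 member, Dlst, and in 9.93% of genes. Neither TNAAGGTCA, the letters bound by estrogen-related receptors, nor TATAAA occurred in a member window, against 1.43% and 15.67% of genes. The matches to both motifs in Sucla2 did not overlap.

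All 11 probes were well above background on all 16 arrays, and none of their spots was saturated or marked as an outlier. Of the 9 genes, 8 had 1 probe and Ogdh had 3, of which the brightest stood for the gene. Transcript levels of 8 of the 9 enzymes varied little between mice. Their SD within groups ran from 0.0949 (Sucla2) to 0.284 (Dlst) on the log2 scale, and their range over all 16 arrays from 0.39 to 1.21. Idh2 stood apart among the 9, with an SD within groups of 0.676 and a range of 2.54, or 5.82-fold. Of all genes tested, 72.5% had an SD within groups no larger than that of Idh2. The median SD was 0.190 for the 9 members, 0.349 for all genes tested and 0.201 for the 1763 genes at least as bright as the dimmest member.

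**Figure D1:**
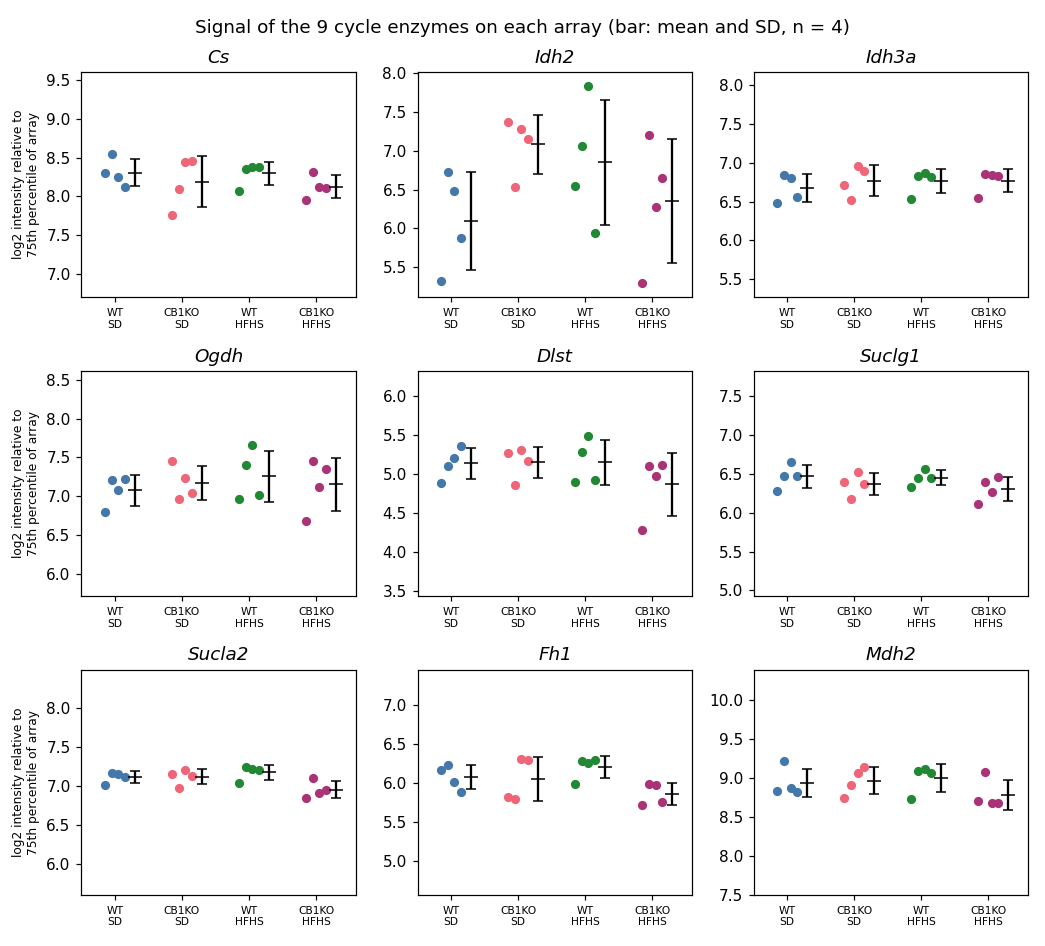
Each panel plots 1 cycle enzyme gene, with log2 intensity relative to the array's 75th percentile on the vertical axis and the 4 groups on the horizontal axis. Points are arrays, bars are the mean and SD of 4, and all panels span the same number of log2 units. The Idh2 points spread over 2.54 units, those of the other genes over 0.39 to 1.21.

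The first question was whether muscle labelled CB1KO differed from muscle labelled WT on the standard diet. No cycle enzyme passed the threshold of 0.05 on the adjusted p value, and 8 of the 9 had fold changes between -0.12 and 0.10 on the log2 scale. Idh2, the NADP-dependent mitochondrial isocitrate dehydrogenase, had the largest difference, with a higher mean in CB1KO. In limma, 0 of 9 members were called, 1 had an unadjusted p under 0.05 (Idh2), and 0 had groups that did not overlap. Over all genes the shares were 0.00345%, 9.02% and 4.2%. The median log2 fold change of the members was 0.02, against -0.12 for all genes, and 6 of 9 estimates were above 0, as were 32.1% of all genes.

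Idh2 signal was 5.32, 6.73, 6.48 and 5.88 in the WT_SD arrays and 7.37, 6.54, 7.28 and 7.15 in the CB1KO_SD arrays. The groups overlapped at 1 array on each side: WT_SD replicate 2 lay above CB1KO_SD replicate 2. The log2 fold change was 0.98 ± 0.45 (SE, 95% interval 0.01 to 1.95), with a Benjamini-Hochberg adjusted p of 0.548 in limma and an exact two-sided permutation p of 0.0571, where 4 arrays against 4 cannot go below 0.0286. Slow-twitch fibre genes moved with it. The mean of 9 slow-twitch genes was -0.54, 0.85, 3.33 and 3.0 in WT_SD and 4.85, 3.53, 5.02 and 3.70 in CB1KO_SD. Every CB1KO_SD array was above every WT_SD array in this mean, although none of the 9 genes passed in limma and 4 had an unadjusted p under 0.05. The part of fibre type in the Idh2 difference was not tested.

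At the entry of the cycle, Cs, which encodes citrate synthase, gave 8.30, 8.55, 8.26 and 8.12 in WT_SD and 7.76, 8.10, 8.44 and 8.46 in CB1KO_SD. In CB1KO_SD, replicates 1 and 2 lay below all WT_SD arrays and replicates 3 and 4 among them. The log2 fold change was -0.12 ± 0.16 (95% interval -0.47 to 0.23). Idh3a, the catalytic subunit of the NAD-dependent isocitrate dehydrogenase, differed by 0.10 ± 0.14. In the 2-oxoglutarate dehydrogenase complex, Ogdh (the decarboxylating subunit) differed by 0.10 ± 0.20 and Dlst (the succinyl transferase core) by 0.02 ± 0.20. The succinyl-CoA ligase subunits Suclg1, shared by both forms of the enzyme, and Sucla2, of the ADP-forming enzyme, differed by -0.10 ± 0.12 and 0.00 ± 0.10. Fh1, fumarate hydratase, and Mdh2, mitochondrial malate dehydrogenase, differed by -0.02 ± 0.15 and 0.03 ± 0.14. For these 8 genes the 95% intervals lay between -0.47 and 0.53, so a doubling lay outside each of them. The interval of Sucla2, -0.21 to 0.22, was the narrowest of the 9.

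The Ogdh probes differed among themselves on SD. Both bright probes gave log2 fold changes of 0.10 and 0.00. The dim probe, at -0.22 to 0.50 over the 8 SD arrays, gave -0.32 ± 0.14, with an unadjusted p of 0.0408 and a Benjamini-Hochberg adjusted p of 0.547 over 40704 probes in limma. All 3 probes carry the same RefSeq accession in the array files.

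On the high fat-high sugar diet, 8 of the 9 estimates were below 0 in CB1KO, by up to 0.50 on the log2 scale, and again none passed. Over all genes 68.6% of estimates were below 0. The median of the members was -0.22 against -0.14 for all genes. In limma 0 of 9 were called, 2 (Sucla2 and Fh1) had an unadjusted p under 0.05, both lower, and 0 had groups that did not overlap. The shares of all genes were 0.248%, 9.38% (5.97% lower) and 10.1%.

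Fh1 signal was 5.98, 6.28, 6.25 and 6.29 in WT_HFHS and 5.71, 5.99, 5.97 and 5.76 in CB1KO_HFHS. The groups met at their edges, since WT_HFHS replicate 1 lay at the level of CB1KO_HFHS replicates 2 and 3. The log2 fold change was -0.34 ± 0.15 (95% interval -0.66 to -0.03), with an adjusted p of 0.483 in limma and an exact permutation p of 0.0571.

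Sucla2 signal was 7.04, 7.25, 7.23 and 7.20 in WT_HFHS and 6.85, 7.11, 6.91 and 6.96 in CB1KO_HFHS. The groups overlapped, since CB1KO_HFHS replicate 2 lay above WT_HFHS replicate 1. The log2 fold change was -0.22 ± 0.10 (95% interval -0.44 to -0.01), with an adjusted p of 0.508 in limma and an exact permutation p of 0.0571.

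Mdh2 gave 8.73, 9.09, 9.12 and 9.07 in WT_HFHS and 8.70, 9.08, 8.68 and 8.68 in CB1KO_HFHS. Here 1 array of each group crossed over: WT_HFHS replicate 1 was low and CB1KO_HFHS replicate 2 high. The log2 fold change was -0.22 ± 0.14, with an adjusted p of 0.679 in limma and an exact permutation p of 0.0857. Idh2 gave 6.55, 7.07, 7.83 and 5.94 in WT_HFHS and 5.29, 7.20, 6.27 and 6.64 in CB1KO_HFHS, a wide overlap. Its log2 fold change of -0.50 ± 0.45 had an adjusted p of 0.749 in limma and an exact permutation p of 0.457. The remaining estimates were -0.28 ± 0.20 for Dlst, -0.17 ± 0.16 for Cs, -0.14 ± 0.12 for Suclg1, -0.11 ± 0.20 for Ogdh and 0.00 ± 0.14 for Idh3a. The intervals of the 8 genes other than Idh2 lay between -0.72 and 0.32. Beside these values, the mean of 6 macrophage genes ranged from -0.12 to 1.0 in WT_HFHS and from 0.73 to 1.92 in CB1KO_HFHS. That of the 9 muscle fibre genes ranged from 8.58 to 9.27 and from 7.29 to 9.38. Both the 1.92 and the 7.29 were those of CB1KO_HFHS replicate 1. The other CB1KO_HFHS arrays lay at 0.73 to 0.84 and at 8.46 to 9.38. The part of these marker genes in the differences on HFHS was not tested.

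**Figure D2:**
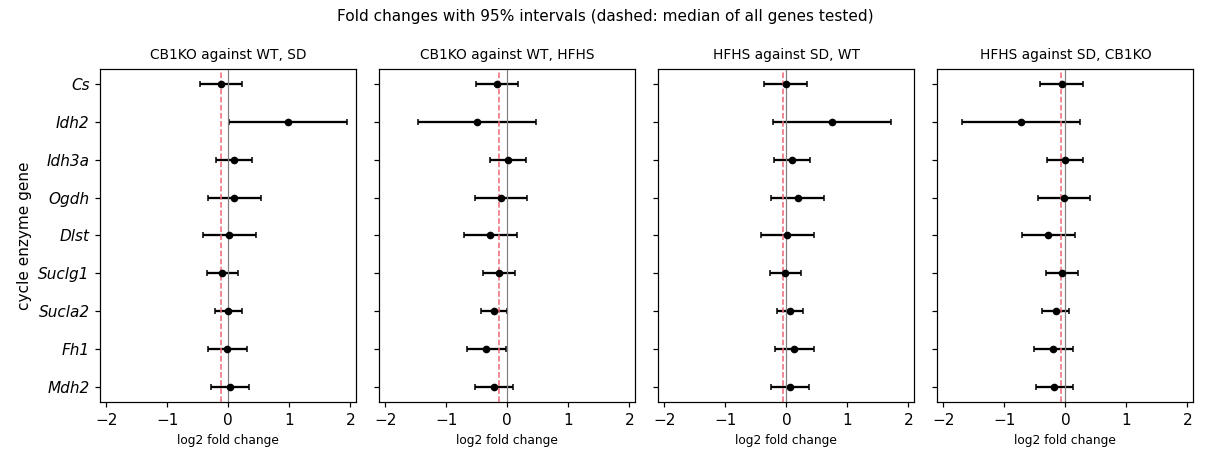
Log2 fold changes of the 9 cycle enzymes in the 4 comparisons within a diet or a genotype, with 95% intervals from limma. The dashed line is the median of all 29011 genes tested (-0.12, -0.14, -0.06 and -0.07 from left to right). The Idh2 intervals are the widest in each panel, and no gene passed after adjustment.

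CB1KO_HFHS replicate 1, the array with the widest signal spread, was the lowest of all 16 arrays for 6 of the 9 members. Without it, the median of the members on HFHS was -0.11, Idh2 was at -0.14, Dlst at -0.08, Ogdh at 0.05, Fh1 at -0.30 and Sucla2 at -0.19. Averaged over both diets, the genotype fold changes ran from -0.18 (Fh1) to 0.24 (Idh2), with a median of -0.11 against -0.13 for all genes, and 7 of 9 estimates were below 0, as were 72.1% of all genes. In limma 0 of 9 were called, against 0.762% of all genes, and 0 had an unadjusted p under 0.05, against 15% of all genes.

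**Figure D3:**
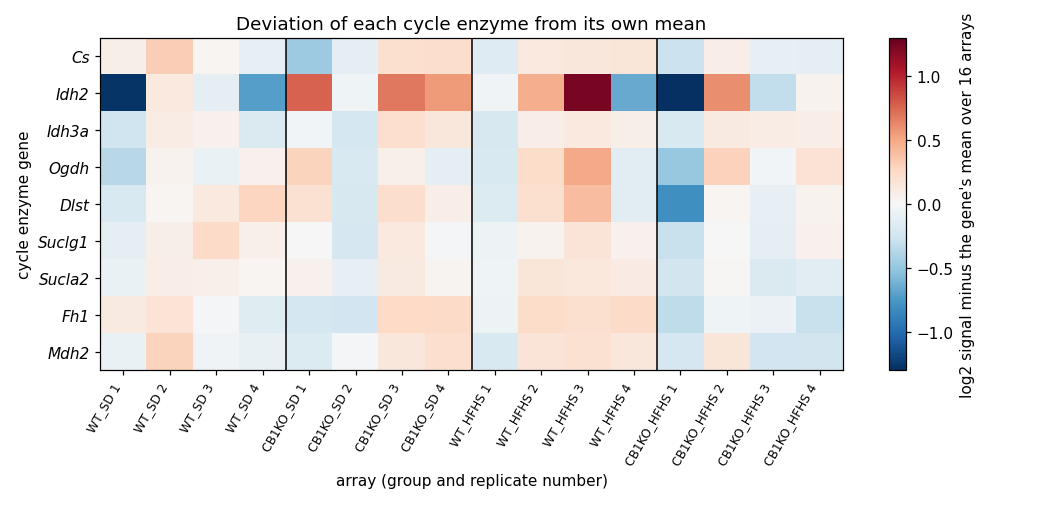
Deviation of each cycle enzyme (rows) from its own mean over the 16 arrays (columns, in groups of 4), on the log2 scale, red above and blue below. Idh2 shows the largest deviations, and CB1KO_HFHS replicate 1 is the lowest column for 6 of the 9 genes.

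The next comparison was that of the diets within a genotype. The standard diet arrays were all on 1 slide and the high fat-high sugar arrays on the other, which means that a slide effect cannot be told apart from a diet effect. In WT, 7 of 9 members had estimates above 0 on HFHS, where 40.9% of all genes did, with a median of 0.06 against -0.06. Idh2 gave 0.75 ± 0.45 (adjusted p = 0.921 in limma, exact permutation p = 0.2), and the other members ran from -0.02 to 0.18. The Idh2 value was 0.42 without WT_HFHS replicate 3 and 0.49 without WT_SD replicate 1. In CB1KO, 9 of 9 had estimates below 0, where 59.4% of all genes did, with a median of -0.16 against -0.07. The count depends on the probe taken for Ogdh. The probe used gave -0.02, and the other bright probe and the dim one gave 0.08 and 0.28. Idh3a lay at -0.00044. Idh2 gave -0.73 ± 0.45 (adjusted p = 0.634 in limma, exact permutation p = 0.171), Dlst -0.28 ± 0.20 and Sucla2 -0.16 ± 0.10 (exact permutation p = 0.0571). Without CB1KO_HFHS replicate 1, these values were -0.38, -0.09 and -0.13. In limma 0 of 9 members were called in either genotype, 0 had an unadjusted p under 0.05, and 0 had groups that did not overlap. Of all genes, 0% and 0.0276% were called in WT and CB1KO, 6.06% and 9.58% had an unadjusted p under 0.05, and 5.4% and 3.73% did not overlap.

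The genotype by diet interaction asks whether the genotype difference changed with diet. Each diet was on its own slide, so a change with diet cannot be told apart from a change with slide. The interaction was below 0 for 9 of 9 members, where 51.8% of all genes were, with a median of -0.22 against -0.01. Over 27 alternatives the median of the members ran from -0.31 to -0.10. In limma 0 of 9 were called, as were 0% of all genes, and 1 (Idh2) had an unadjusted p under 0.05, against 3.63% of all genes. Idh2 gave -1.48 ± 0.64 (95% interval -2.85 to -0.11, unadjusted p = 0.0366, adjusted p = 1.00), and the next largest was Fh1 at -0.33 ± 0.21. For Ogdh the probe used gave -0.20, the other bright probe -0.10 and the dim probe 0.21. The 9 slow-twitch genes were also all below 0 in the interaction, with a median of -2.23 and 0 called.

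Over all 16 arrays the signal of Idh2 correlated with the slow-twitch mean. For Ogdh and Dlst the adjusted permutation p was under 0.05 by Pearson r but not by Spearman rho. Arrays were permuted without regard to group, so differences between groups enter these values. The share of all genes with correlations as strong was not computed. The Ogdh values are those of the brightest probe alone. For the other bright Ogdh probe, of nearly the same level, the correlation was not computed, so they may not hold for the gene. Pearson r was 0.860 for Idh2, 0.741 for Ogdh and 0.712 for Dlst (permutation p adjusted over the 9 members 0.00027, 0.00381 and 0.00381), and Spearman rho was 0.856, 0.615 and 0.565 (adjusted p 0.00063, 0.0584 and 0.0740 by permutation). Without the 2 arrays farthest from the median, CB1KO_HFHS replicate 1 and WT_SD replicate 1, r was 0.724, 0.527 and 0.500. Within the slides of 8 arrays r was 0.774 and 0.936 for Idh2, 0.620 and 0.864 for Ogdh, and 0.595 and 0.824 for Dlst. The slow-twitch mean left a gap between 4 arrays at -0.73 to 0.85 and 12 arrays at 2.84 to 5.15. The relation was also computed within the 12, a split made after the values were seen. The p values within the 12 arrays are therefore descriptive and not those of a planned test. Over these 12 arrays Idh2 correlated with the slow-twitch mean with Pearson r = 0.844 (permutation p = 0.00012, Benjamini-Hochberg adjusted 0.00108 over the 9 members) and Spearman rho = 0.853 (permutation p = 0.00083, adjusted 0.00747). Without the 2 arrays farthest from the median, r was 0.764, and within the slides it was 0.875 and 0.867 over 6 arrays each. Within the 12 arrays r was 0.603 for Ogdh and 0.447 for Dlst, and adjusted permutation p values of the 8 members other than Idh2 ran from 0.187 to 0.597. Whether Idh2 differs from Ogdh or Dlst in this relation was not tested. In the 4 arrays of low slow-twitch mean, Idh2 was 5.32, 6.73, 5.94 and 5.29, which include its 2 lowest values. Signal spread differs between these arrays, and all values of an array share its scaling.

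**Figure D4:**
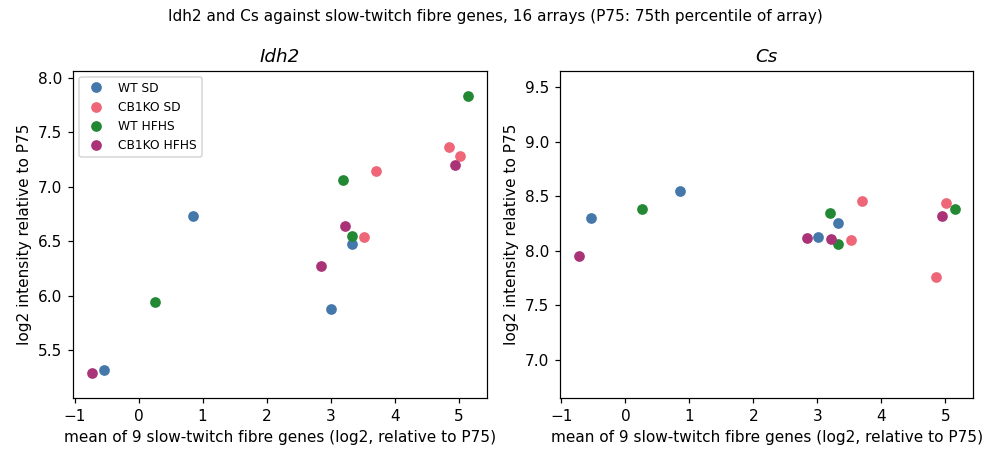
Signal of Idh2 (left) and Cs (right) against the mean of 9 slow-twitch fibre genes on the same array, both on the log2 scale relative to the array's 75th percentile, coloured by group. In the 12 arrays above 2.84 on the horizontal axis, Idh2 rises with the slow-twitch mean (r = 0.844), and Cs gave r = 0.172. This split was made after the values were seen. Over all 16 arrays r was 0.860 for Idh2 and -0.038 for Cs, the highest and the lowest of the 9 members. Ogdh, Dlst, Idh3a, Suclg1, Sucla2, Mdh2 and Fh1 gave 0.741, 0.712, 0.452, 0.444, 0.399, 0.164 and 0.036.

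The genes whose profile over the 16 arrays lay closest to the mean profile of the 9 members, out of 12661 candidates, were Txn2, Sdhc, Idh3g, Cox7c and Ndufv1. Their root mean square difference from that profile was 0.0658, 0.0673, 0.0691, 0.0699 and 0.0713 on the log2 scale, against a median of 0.311 for the candidates. The members themselves lay between 0.117 (Sucla2) and 0.538 (Idh2) from their own mean profile. Sdhc encodes a membrane subunit of succinate dehydrogenase and Idh3g a regulatory subunit of the NAD-dependent isocitrate dehydrogenase.

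Among 8 further subunits of cycle enzymes (Idh3b, Idh3g, Dld, Suclg2 and Sdha to Sdhd), 0 were called in any of the 6 comparisons in limma, and 0 had an unadjusted p under 0.05. Their estimates were above 0 for 8 of 8 on SD (median 0.14), where 32.1% of all genes were (median -0.12). On HFHS they were below 0 for 8 of 8 (median -0.18), where 68.6% of all genes were (median -0.14). The smallest p on HFHS was that of Sdhb, the iron-sulfur subunit of succinate dehydrogenase, at -0.32 ± 0.18 (adjusted p = 0.627).

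Of 13 genes of pyruvate entry (the pyruvate dehydrogenase complex, its kinases and phosphatases, and the mitochondrial pyruvate carrier), 0 were called in any comparison. On HFHS 1 had an unadjusted p under 0.05 with a higher and 5 with a lower level in CB1KO, where 9.38% of all genes had such a p and 5.97% with a lower level. These included the carrier subunit Mpc1 at -0.54 ± 0.14 (adjusted p = 0.166 in limma), the kinase Pdk3 at 1.11 ± 0.33 (adjusted p = 0.248) and Pdhx, the E3-binding subunit, at -0.56 ± 0.18 (adjusted p = 0.286). With arrays weighted by quality, these 3 passed, with adjusted p of 0.00476, 0.00643 and 0.0334, as did 7.32% of all genes under that setting.

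Of 19 genes of side branches and cytosolic partners, 1 passed, lower in CB1KO averaged over diets, where 0.452% of all genes did, and 0 passed in the other 5 comparisons. This was Pcx, pyruvate carboxylase, which makes oxaloacetate from pyruvate. Its signal was 4.34, 4.29, 4.49 and 4.59 in WT_SD, 3.59, 3.47, 4.06 and 3.80 in CB1KO_SD, 4.10, 4.18, 3.77 and 4.32 in WT_HFHS, and 4.00, 3.30, 3.32 and 3.36 in CB1KO_HFHS. The genotypes did not overlap on SD, and on HFHS CB1KO_HFHS replicate 1 lay above WT_HFHS replicate 3. The averaged log2 fold change was -0.65 ± 0.13 (adjusted p = 0.0391 in limma), made of -0.70 ± 0.18 on SD and -0.60 ± 0.18 on HFHS. The call was lost on leaving out any 1 of 12 arrays and kept only without CB1KO_SD replicate 2 or 3, WT_HFHS replicate 3 or CB1KO_HFHS replicate 1, while the fold change stayed between -0.73 and -0.60. It was also lost with the replicate number as a block (adjusted p 0.0949), under normexp with quantile normalization (0.0516) and without a filter (0.0618). Pcx is also active in adipocytes, and the mean of 7 adipocyte genes ranged from -2.02 to 3.21 in WT_SD, -1.97 to 1.17 in CB1KO_SD, 0.43 to 1.87 in WT_HFHS and 0.12 to 2.86 in CB1KO_HFHS, with 6 or 7 of the 7 well above background on every array. Their part in the Pcx difference was not tested. Me2, mitochondrial malic enzyme, was at 0.51 ± 0.12 averaged over diets (adjusted p = 0.0697 in limma), and it passed under 6 of 28 alternatives, with adjusted p from 0.00937 to 0.284 over all of them.

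Of 11 regulators of mitochondrial genes, 0 were called in any comparison in limma. An unadjusted p under 0.05 was found for 2 on SD, 1 on HFHS, 2 for diet in WT and 3 in the interaction. The shares of all genes there were 9.02%, 9.38%, 6.06% and 3.63%. Averaged over diets and for diet in CB1KO, 0 regulators had such a p, against 15% and 9.58% of all genes. On SD these were Ppara, a receptor that drives fatty acid oxidation genes, at 1.06 ± 0.42 (adjusted p = 0.475), and Ppargc1a, a coactivator of mitochondrial genes, at 0.41 ± 0.17 (adjusted p = 0.512). On HFHS it was Esrra, estrogen-related receptor alpha, at -0.56 ± 0.17 (adjusted p = 0.269). Esrra passed with arrays weighted by quality (adjusted p = 0.0188 in limma), as did 7.32% of all genes on HFHS under that setting.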

How the data were processed

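Total RNA of 16 muscles was measured on Agilent arrays. The deposited scanner files hold spot intensities from Feature Extraction 11.5.1.1, per the file headers: a processed intensity corrected for background and not scaled between arrays. The authors' series table gives a score for every spot, found to be the z-score of log2 processed intensity within an array (to within 0.00502). Log2 processed intensity minus the array's 75th percentile was analysed. Outlier spots were set to missing and repeated spots averaged. Probes that stood well above background in 4 or more arrays were kept (40704 of 55681), and the brightest probe was taken per gene. Symbols came from RefSeq accessions for 28026 probes, and 27655 kept their identifier. Probe sequences and positions were not used.

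Group means of all 16 arrays were compared in 1 linear model with limma 3.58.1 (lmFit, eBayes) in R 4.3.3, with Benjamini-Hochberg adjustment over 29011 genes, two-sided. The model was tested on simulated data. Single values were compared by exact permutation tests, and correlations with 100000 permutations. The split of arrays by slow-twitch mean was made after its values were seen. The members and gene lists were chosen with earlier results of these data known. All 9 members are named. Of each pathway list up to 3 genes per comparison with the smallest p are named, fewer where they add little, and the 5 genes of most similar profile. Of the list of further cycle enzymes, 1 gene is not reported here. Marker lists covered muscle fibre, slow-twitch fibre, adipocyte, macrophage, endothelium, fibroblast and red blood cell genes. Replicate numbers did not pair the arrays: 8 of 24 same-number pairs correlated above 0.1 (median r -6.1e-05, range -0.754 to 0.609), against 26 of 72 different-number pairs (median r -0.012). The number of arrays limits the precision. Alternatives were quantile normalization, normexp (offset 50) with quantile normalization, the deposited scores rescaled, 2 other filters, the mean of a gene's probes, trended robust variances, array weights, the replicate number or slide as a block, signal SD as a covariate, fewer arrays or groups, and each array left out.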

Additional observations from a re-analysis of the deposited data

Results flagged for a closer look

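In 7 of 36 gene and group combinations, 1 array stood far from the other 3: the gap to its nearest neighbour, as a share of the group's range, was above Dixon's 95% critical value for 4 samples. Chance gives about 1 in 20, and values of different genes on 1 array are not independent. WT_HFHS replicate 1 was low for Cs (8.07, ratio 0.901), Idh3a (6.54, ratio 0.858), Fh1 (5.98, ratio 0.862) and Mdh2 (8.73, ratio 0.886). CB1KO_HFHS replicate 1 was low for Idh3a (6.54, ratio 0.901). WT_SD replicate 2 was high for Mdh2 (9.21, ratio 0.874), and CB1KO_HFHS replicate 2 was high for Mdh2 (9.08, ratio 0.944).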

How the results depend on the processing

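No member passed the threshold in limma in any of 135 combinations of setting and comparison over 29 alternatives, and the smallest adjusted p was 0.0986 (Sucla2, genotype on HFHS, array weights). With the replicate number as a block, 0 members passed and Idh2 on SD stayed at 0.98 (adjusted p 0.600), while Pcx averaged over diets was lost (adjusted p 0.0949). Over its 28 alternatives the adjusted p ran from 0.00238 to 0.0949. Signs turned for small fold changes that passed under no setting, and the cause was not tested. On SD, Cs was 0.015 under quantile normalization and 0.018 under normexp with quantile normalization. Fh1 on SD was 0.091 and 0.11 under these settings and 0.035 with the deposited scores. It was 0.12 with array weights and 0.069 with both unusual arrays (CB1KO_SD replicate 2 and CB1KO_HFHS replicate 1) left out. Ogdh on SD was -0.073 with the mean of its probes, and on HFHS it was 0.035 under quantile normalization and 0.052 without both unusual arrays. Idh3a on HFHS was -0.00870 with signal SD as a covariate. With the deposited scores the median of the members for diet in CB1KO moved to -0.42, and that for diet in WT turned from 0.06 to -0.12, with the median of all genes there at 0.017. Leaving out 1 array at a time gave on SD -0.21 to 0.025 for Cs, -0.070 to 0.11 for Dlst, -0.034 to 0.047 for Sucla2, -0.10 to 0.069 for Fh1 and -0.029 to 0.12 for Mdh2, and on HFHS -0.071 to 0.079 for Idh3a and -0.21 to 0.052 for Ogdh. The median of all genes on HFHS was -0.02 under normexp with quantile normalization and -0.03 with the deposited scores, against -0.14, and for diet in CB1KO 0.04 with the scores, against -0.07. Array weights called more genes: 48 against 1 on SD, 2125 against 72 on HFHS, 1986 against 221 averaged over diets, 91 against 0 for diet in WT and 137 against 8 for diet in CB1KO. With 4 arrays a group, the number of arrays limits the precision.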
